A study of Mus musculus with 2 samples.

Results

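The Sfmbt2 intronic miRNA cluster is a run of miRNA genes inside Sfmbt2 on mouse chromosome 2. Its members were taken by position: every deposited miRNA gene that the GENCODE M21 annotation places fully inside Sfmbt2 and on its strand. This gave 119 of the 2202 miRNA genes in the tables, or 5.4%. The rule used position alone, but was set with earlier results of these data known. The study measured short RNA in 2 female mice of the strain B6CASTF1/J, aged 2 months, in tissue of the left cerebral cortex, with 1 library of microRNA-seq per animal made from total RNA. B6CASTF1/J names the first-generation cross of a C57BL strain with the wild-derived CAST strain. The labels give both libraries the same tissue, strain, sex and age and name no treatment, so there was 1 group and no contrast. They number the animals separately but give both the same donor identifier, and the libraries are called animal 1 and animal 2 by their replicate numbers.

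A miRNA gene is transcribed as part of a longer RNA, in which the miRNA lies in a hairpin. The hairpin is cut out and then trimmed to a short mature miRNA, whose seed, bases 2 to 8, pairs with target messenger RNAs. Sfmbt2 encodes a Polycomb group protein and is imprinted, being expressed mainly from the paternal copy in early embryos and placenta. The cluster in its intron is found in mouse and rat, arose by repeated duplication, and is known mainly from placenta and embryonic stem cells. Mice that lack it have poorly developed placentas. Roles of its single members are less well established, so none is given for them here.

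All 119 members lay in a single intron of Sfmbt2. On mm10 the gene spans chromosome 2 from 10370510 to 10595253 on the plus strand. The members lay between 10465287 and 10518279, a stretch of 52993 bases, inside intron 10 of transcript Sfmbt2-201 (10461473 to 10523944). None overlapped an annotated Sfmbt2 exon, and no deposited miRNA gene inside Sfmbt2 lay on the other strand. By symbol, 29 members were Mir669 genes, 23 Mir466, 14 Mir467 and 5 Mir297, and 48 had a predicted-gene symbol starting with Gm. Of the Gm genes, 45 had a Mir669 gene as their closest named member, 2 a Mir466 gene and 1 a Mir467 gene, with a median identity of 95.7% over the shorter hairpin. Neighbouring hairpins were a median of 207 bases apart.

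No mature sequence was at hand for the members, so those of the same name families outside Sfmbt2 are given. Whether the members' mature miRNAs resemble them was not tested. By symbol, 0 of the members and 9 of the 10 Mir297, Mir466, Mir467 and Mir669 genes elsewhere in the genome matched the RefSeq table of miRNA sequences (GRCm38.p6). Of the latter, 8 had a mature miRNA. The mature miRNAs are given 5′ to 3′ with the seed in capitals, to show their runs of alternating purines and pyrimidines, mostly UG or CA repeats.
miR-466i-3p: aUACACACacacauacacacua
miR-466j: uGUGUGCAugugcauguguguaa
miR-466k: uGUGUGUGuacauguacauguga
miR-466q: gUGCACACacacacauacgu
miR-467f: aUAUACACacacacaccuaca
miR-467g: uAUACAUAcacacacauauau
miR-467h: aUAAGUGUgugcauguauaugu
miR-669n: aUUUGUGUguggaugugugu
The 8 sequences had 8 different seeds, and only that of miR-467h was shared with another mature miRNA in the table. No member of the cluster matched that table, so seeds shared with the members could not be seen. The longest alternating purine and pyrimidine run was 8 bases in miR-669n and up to 22 bases in miR-466j and miR-466k, against a median of 4 over the 1738 mature sequences in the table.

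The cluster's hairpins, read from the GENCODE transcripts, were rich in the dinucleotides that make up such repeats. This is a measure of composition, and no run was measured in the hairpins. The dinucleotides UG, GU, CA and AC made up a median of 50% of neighbouring base pairs in a member's hairpin and 26.6% in hairpins outside the cluster. All 119 members lay above the latter median. Their median GC content was 37.3%, against 51.7% outside.

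Levels are in CPM, the count at a gene over all gene counts of the library, scaled to 1000000. CPM is not divided by gene length, since each read is 1 short RNA. Animal 1 had 4415759 counts at miRNA genes and animal 2 had 2279562. Reads that mapped to several places form a separate entry, 37.4% of reads for animal 1 and 25.5% for animal 2, and unmapped reads were 23.4% and 47.1%. The sources used here do not say whether such reads were also counted at genes. The counts of near-identical copies, zeros included, are thus uncertain as levels. The percentages of reads take the sum of all entries as the total, and hold only if each read was counted once. Genes with at least 2 CPM in each animal were called detected. For a count of 0, a floor of 3 counts was set, or 0.679 CPM in animal 1 and 1.32 in animal 2. The exact 95% interval at 0 counts reached somewhat higher, to 0.835 and 1.62 CPM. These limits and the intervals cover counting error alone, since PCR reads that carry no molecular identifier are not independent molecules. The tissue label was checked with a list of 14 neuronal miRNA genes. Of these, 10 were detected, against 18.8% of all genes, and none was at 0 in both animals, against 66.1%. They held 5.33% and 10.1% of counts. Of 13 miRNA genes typical of pluripotent cells and early embryos, where the Sfmbt2 cluster is also known, 0 were detected, with 7 counts in all in animal 1 and 3 in animal 2. A list of 14 X-linked and testis miRNA genes also had 0 detected, with 19 counts in animal 1 and 4 in animal 2.

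Few members of the cluster had counts in the cortex libraries. Counts were 0 in both animals at 106 of 119 members (89.1%), where 66.1% of all miRNA genes were at 0. At least 1 count in either animal was found at 13 members (10.9%), against 33.9% of all genes. Detection in both animals was reached by 7 members (5.88%), against 18.8% of all genes. The 7 were Mir467c, Mir467d, Mir467e, Mir669c, Mir669h, Mir669l and Mir669o. Those with a count that did not reach 2 CPM in both were Mir669e, Mir669f, Mir467b, Mir466h, Gm22072 and Gm26398. Of the 119 members, 117 share 22 or more bases of hairpin with another miRNA hairpin. Among genes that do, a count was found at 11.1% of members and at 12.8% of genes outside the cluster. Detection was reached by 5.98% and 8.4% of them, so the gap to all genes is narrower among sharing genes.

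The members together held a small share of the counts at miRNA genes. They had 5825 counts in animal 1, which is 0.132% of counts (exact Clopper-Pearson 95% interval 0.129 to 0.135%), and 3161 counts in animal 2, or 0.139% (0.134 to 0.144%). The mean was 0.135% ± 0.00478 (SD, n = 2). Of all reads, unmapped ones included, the members held 0.0430% in animal 1 and 0.0312% in animal 2, so the order of the animals turned with the total used. The summed level was 1.05 times as high in animal 2, and 1.41 times without Mir467d, both outside counting error. The separate entry for several places held 869 reads for each read counted at a member in animal 1 and 818 in animal 2. How many of those reads came from the cluster is not shown by these tables.

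**Figure D1:**
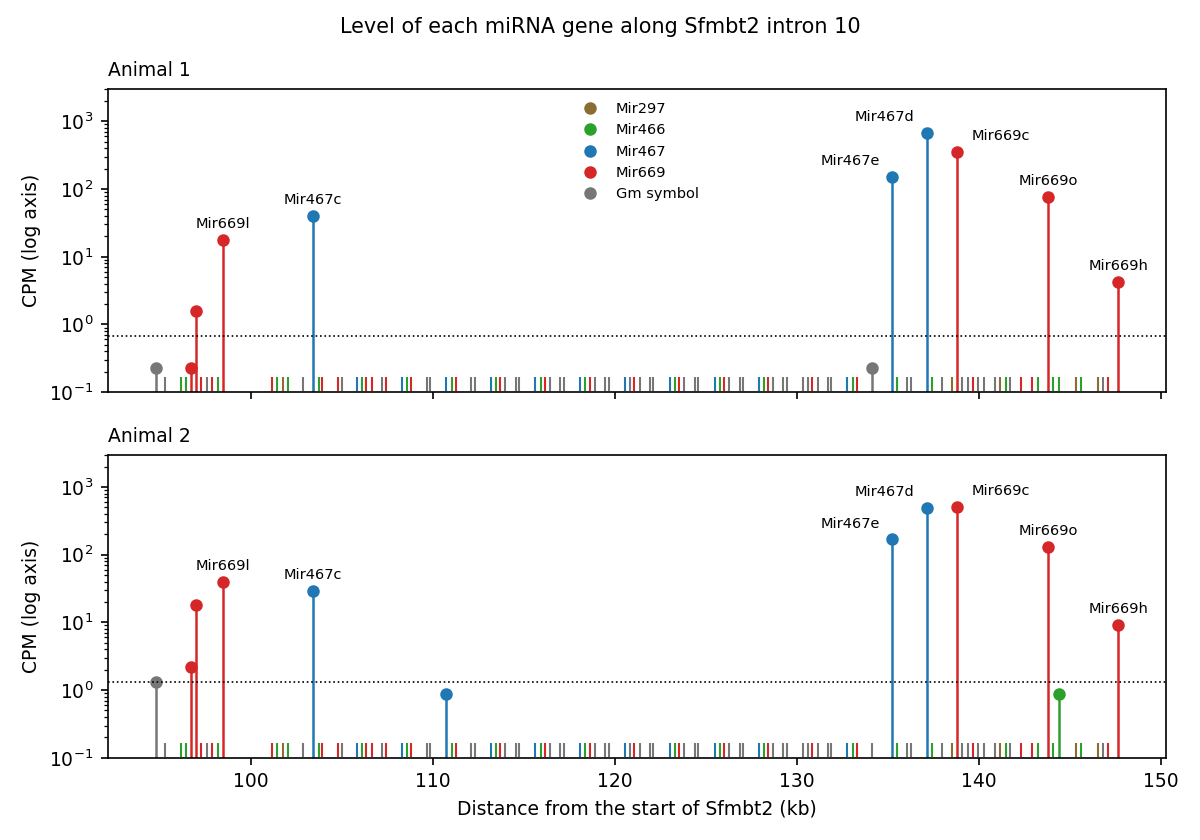
CPM of each member (vertical axis, log scale) against its distance from the start of Sfmbt2 in kb, with 1 panel per animal and colours for name families; ticks at the bottom are members at 0 counts, and the dotted line is the floor of 3 counts. The tall stems stand at both ends of the cluster, and the middle holds 1 member with a count, Mir467b, in animal 2 alone.

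Mir467d was the most abundant member by its mean. It had 3002 counts in animal 1 and 1103 in animal 2, which is 680 CPM (exact interval 656 to 705) and 484 CPM (456 to 513). Its mean of 582 ± 139 CPM (SD, n = 2) put it at rank 116 of 2202 miRNA genes, while Mir139, the leading gene of the series, had 146459 ± 21970 CPM. The level was 1.41-fold higher in animal 1, outside counting error. Mir467d (ENSMUSG00000077021.2) lies at 10507630 to 10507714.

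Mir669c followed and was the highest member in animal 2. It had 351 CPM in animal 1 (333 to 368) and 504 CPM in animal 2 (476 to 534), a 1.44-fold higher level in animal 2. Its mean was 428 ± 109 CPM, at rank 135. Mir669c (ENSMUSG00000076118.1) lies at 10509296 to 10509404, downstream of Mir467d, and these neighbours in abundance changed places between the animals.

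The next members, Mir467e and Mir669o, had the same order in animal 1 and animal 2. Mir467e (10505721 to 10505807) had 149 CPM in the former and 168 CPM in the latter, and was the only detected member inside counting error, with a mean of 158 ± 13.4 CPM. Mir669o (10514300 to 10514395) had 75.6 and 130 CPM, 1.72-fold higher in animal 2.

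The leading 4 members held nearly all of the cluster's counts. Mir467d, Mir669c, Mir467e and Mir669o together held 95.1% of them in animal 1, with an exact interval of 94.5 to 95.6%, and 92.7% in animal 2, with one of 91.8 to 93.6%. Their summed level was 1255 CPM in animal 1 and 1286 CPM in animal 2, which differed by less than counting error.

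The remaining detected members stood below 50 CPM on average. Mir467c (10473931 to 10474027) had 40.3 and 29.4 CPM in animals 1 and 2, 1.37-fold higher in animal 1. Mir669l (10468971 to 10469068) had 17.7 and 39.0 CPM, 2.21-fold higher in animal 2. Mir467c and Mir669l changed places between the animals, as did Mir467d and Mir669c. Each of the other 4 pairs of neighbours in the order of means had its ranges apart, from 1.54-fold between the means of Mir467e and Mir669o to 4.20-fold between those of Mir669l and Mir669h.

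Mir669h and Mir669e lay on either side of the detection limit. Mir669h, the last member in genome order (10518155 to 10518279), had 19 and 21 counts, which is 4.30 and 9.21 CPM. Mir669e (10467495 to 10467613) had 7 counts in animal 1 and 41 in animal 2, or 1.59 and 18 CPM, and missed 2 CPM in animal 1 alone. Its 11.3-fold higher level in animal 2 was the widest gap among members with more than 3 counts in each animal, with a counting interval of the log2 ratio of animal 1 to animal 2 from -4.91 to -2.33. Mir669f had 1 and 5 counts and reached 2 CPM in animal 2 alone.

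**Figure D2:**
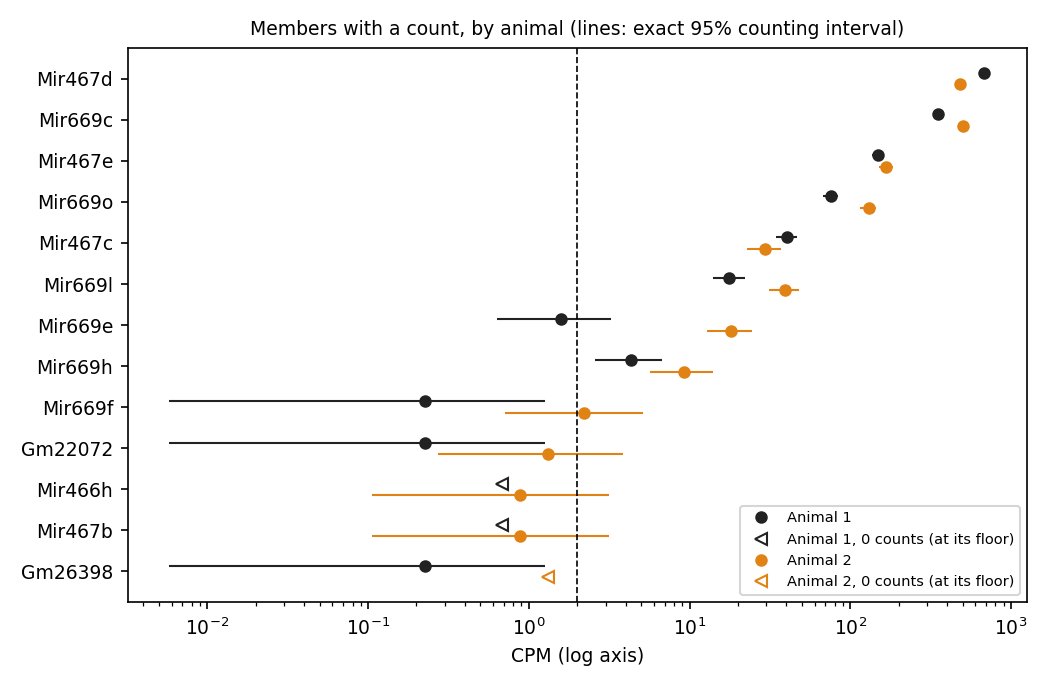
CPM (horizontal axis, log scale) of the 13 members with a count, in animal 1 (black) and animal 2 (orange), with lines for the exact 95% counting interval, open triangles for 0 counts drawn at the floor, and a dashed line at 2 CPM. Every Mir669 member lies further right in animal 2, and Mir467d and Mir467c lie further right in animal 1.

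Mir669 members were higher in animal 2, while Mir467 members were higher in animal 1 or inside counting error. All 6 Mir669 members with a count, Mir669c, Mir669o, Mir669l, Mir669e, Mir669h and Mir669f, were higher in animal 2 outside counting error, as were 18.1% of all genes with a count in either animal. Of the 4 Mir467 members with a count, Mir467d and Mir467c were higher in animal 1, as were 16.2% of all genes with a count, and Mir467e and Mir467b were inside counting error. Of the 13 members with a count, 8 lay outside counting error, against 34.3% of all genes with a count. Among the 7 detected members, 6 lay outside counting error, against 56.6% of all detected genes; 2 were higher in animal 1 (27.0% of all detected genes) and 4 in animal 2 (29.6%).

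Within each library, which needs no scaling between them, the balance of these families also differed. Mir669 members had 1987 counts and Mir467 members 3836 in animal 1, a ratio of 0.518. In animal 2 they had 1602 and 1554 counts, a ratio of 1.03. Mir669 made up 34.1% of the cluster's counts in animal 1, with an exact interval of 32.9 to 35.3%, and 50.7% in animal 2, with one of 48.9 to 52.4%. The ratio was 1.99 times as high in animal 2, and 1.49 times with Mir467d left out and 2.54 times with Mir669c left out. Summed over the family, Mir669 had 450 and 703 CPM and Mir467 had 869 and 682 CPM. Each animal gave 1 library, so a gap between the animals and one between their preparations cannot be told apart. The unmapped share, 23.4% and 47.1%, moved with the animals as well, and so did the share of counts at the neuronal list, 5.33% and 10.1%. Their part in these gaps was not tested.

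**Figure D3:**
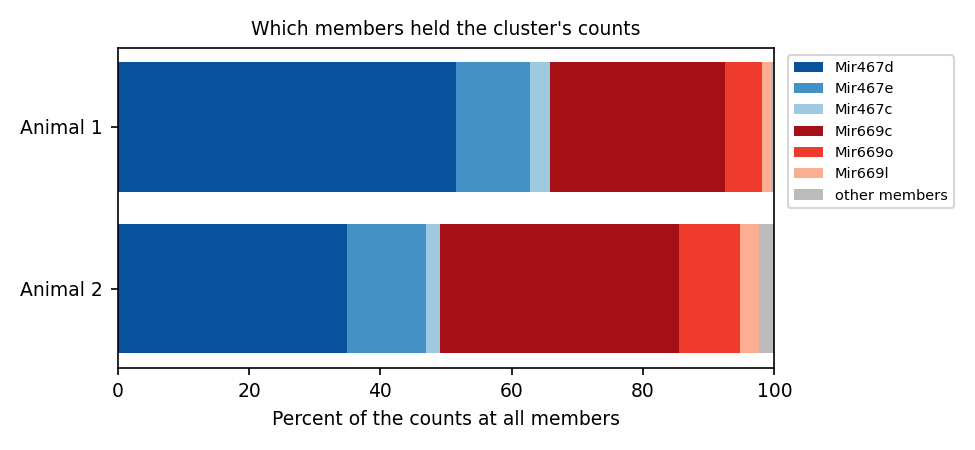
Percent of the counts at the 119 members (horizontal axis) held by single members in each animal, with Mir467 members in blue, Mir669 members in red and the others in grey. The blue part is 65.9% of the bar in animal 1 and 49.2% in animal 2.

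The Mir466 and Mir297 families had almost no counts. Of the 23 Mir466 members, 22 were at 0 in both animals, and Mir466h had 0 and 2 counts. All 5 Mir297 members were at 0. The 48 Gm members had 2 counts in animal 1 and 3 in animal 2, from Gm22072, the first member in genome order (10465287 to 10465407), with 1 and 3 counts, and Gm26398 with 1 and 0. Each of these levels is at or under the floor of 3 counts.

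Along the intron, counts came from the ends of the cluster. The middle is an array that runs from Mir467a-1 to Mir467a-10, chosen by these names after the values were seen. Its Mir467a copies started a median of 2462 bases apart, and 9 of the 10 copies are followed in turn by a Mir466 gene and a Mir669 gene. These 65 members, over 27.0 kb, had 0 counts in animal 1 and 2 in animal 2, both at Mir467b. The 21 members before the array had 265 and 205 counts, or 4.55% and 6.49% of the cluster's counts. The 33 members after it had 5560 and 2954 counts, or 95.5% and 93.5%, and included 5 of the 7 detected members.

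Most hairpins of the array were copies of each other. A window of 22 bases, about the length of a mature miRNA, was called a hairpin's own when no other miRNA hairpin of the tables held it on either strand. Of the 65 array members, 50 had no window of their own and 45 had an identical hairpin elsewhere. Before the array 1 of 21 members had no own window, and after it 3 of 33. Over the whole cluster, 54 members had no own window, and 47 fell into 16 groups of identical hairpins with up to 9 genes each. All 10 Mir467a copies, 11 of 12 Mir669a copies and 6 of 8 Mir466b copies were without a window of their own, and all of these genes were at 0.

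None of the 54 members without an own window had a count, while 24 of 280 genes outside the cluster with no own window did (8.57%). Of the 8 members with own windows but under 25% of them, 1 had a count. The number was 2 of 28 at 25 to 50%, 7 of 13 at 50 to 75%, and 3 of 16 at 75% or more. Outside the cluster a count was found at 3.7% of genes with own windows under 25%, 9.66% at 25 to 50%, 8.59% at 50 to 75% and 50.6% at 75% or more. The 7 detected members had 39.1% to 83.0% own windows, the lowest being Mir467d and the highest Mir669c. Having such windows did not go with counts throughout, since 19 members with at least 50% own windows were at 0, among them Mir466g with 100%. Own windows were counted against miRNA hairpins only, so a match elsewhere in the genome was not tested.

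Sharing was the rule in the cluster. A stretch of 22 or more bases was shared with another miRNA hairpin by 117 members (98.3%), against 49.1% of all genes. The other 2 members, Mir466g and Gm22239, were at 0. Of the sharing members, 7 were detected (5.98%), and of the 964 sharing genes outside the cluster 81 were (8.40%). Of the 1119 genes outside the cluster that share no such stretch, 327 were detected (29.2%). These shares are descriptions over genes, which are not independent.

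**Figure D4:**
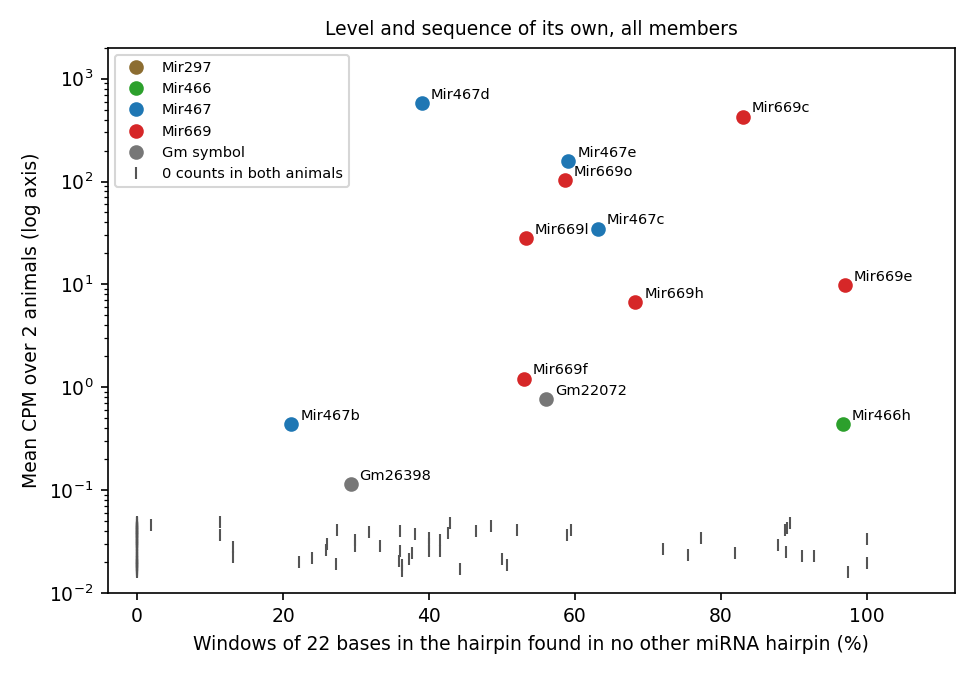
Mean CPM over 2 animals (vertical axis, log scale) against the percent of 22-base windows in a hairpin found in no other miRNA hairpin, for the 119 members; ticks near the bottom are members at 0 counts, where height has no meaning. The ticks pile up at 0% own windows, where no coloured point stands.

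Several counted members had a close copy at 0. Mir467b differed by 1 edit over 73 bases from Mir467a-6, which was at 0, and itself had 0 and 2 counts. Mir467d differed by 3 edits over 73 bases from Mir467a-1, also at 0. Mir669o was 95.4% identical to Mir669a-9, at 0 as well. Mir467c and Mir467d, both detected, were 95.3% identical, and Mir467c and Mir467e 94.3%. Mir669c was further from its closest member, at 83.7%. Whether the counts of these genes hold reads of their copies was not tested.

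Reads lay on the strand of Sfmbt2 alone. No member had a count in the opposite-strand column, and the unstranded column gave the same count as the strand column at all 119 members.

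The same name families outside Sfmbt2 were no higher in the counts. Of those 10 genes, 0 were detected and 9 were at 0 in both animals, and 9 shared a stretch of 22 bases with another hairpin. Mir466q on chromosome 3 (28419943 to 28420018) had 4 counts in animal 1 and 1 in animal 2.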

How the data were processed

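For each library the authors deposited a table of raw read counts at miRNA genes, on mm10 with GENCODE M21, per the file metadata. The aligner and read filters are not given in the sources used. Of 3 count columns without headers, the 1 with the larger strand-assigned sum was used. The 4 summary entries, which name no gene, were left out of totals.

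The members and lists were chosen with earlier results of these data known. With 1 group of 2 animals, nothing was tested between groups and no p-value is given. For each gene, an exact Clopper-Pearson 95% interval was taken for the share of its counts found in animal 1. A gene lay outside counting error when this interval missed the share set by the library totals. The call was checked on simulated counts with counting error alone, so its behaviour between real libraries was not tested. Fold differences between the animals were ratios of CPM. The counting interval of a log2 ratio came from the counts and library totals. No pseudocount was added in either. Hairpins came from the GENCODE transcripts. Scaling alternatives came from edgeR 4.0.16 (TMM) and DESeq2 1.42.0. Named members were those with a count among the 20 most abundant, the first and last in genome order, and those nearest 2 CPM. Members named for their sequence, and the array of Mir467a copies, were chosen after values were seen. Alternatives covered the detection minimum, the count column, scaling, depth, the total, the stretch length and leaving out an animal or a gene.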

Additional observations from a re-analysis of the deposited data

How the results depend on the processing

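Detected members stayed at 7 under TMM scaling (18.8% of all genes), DESeq2 size factors (18.8%) and thinning of the deeper library (18.7%). They were also 7 in the unstranded counts (17.7% of all genes), where the members' counts were the same and only the total changed. No miRNA gene lay on the other strand, so allowing either strand of Sfmbt2 could not change the members. Detected members were 6 at 10 CPM (13.9% of all genes) and 13 at 1 count in either library (33.9%). They were 9 without animal 1 (20.4% of all genes) and 7 without animal 2 (20.2%). All of these share a stretch of 22 bases, so the same 13 apply to sharing members, and 0 detected members had an identical hairpin. The mean share of counts was 0.145% in the unstranded counts, 0.158% with the most abundant gene left out of the total and 0.0371% of all reads, where the order of the animals turned (0.0430 and 0.0312%). It was 0.132 to 0.139% with either animal left out. With the same choice, members at 0 were 107 without animal 1 (71.4% of all genes) and 108 without animal 2 (68.1%). Members outside counting error stayed at 6 of 7 under TMM scaling (57.6% of all detected genes) and DESeq2 size factors (57.1%). They were 8 of 13 at 1 count in either library, against 34.3% of all genes with such a count. Leaving out single genes was added after the data were seen. The summed level of the cluster was 1.05 times as high in animal 2 and 1.41 times without Mir467d, and the ratio of Mir669 to Mir467 moved from 1.99 to 1.49 without Mir467d and to 2.54 without Mir669c. No paired analysis was possible because there was only 1 group. Depth limits every member under 3 counts.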

Other observations

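Among annotated protein-coding genes that hold 4 or more of the deposited miRNA genes on their strand, Sfmbt2 held by far the most. Htr2c, a serotonin receptor gene, held 7, of which 5 were detected, with 0.0166% of counts in animal 1 and 0.0156% in animal 2. Clcn5, a chloride transporter gene, held 5, all detected, with 0.152% and 0.202%. Clcn5 thus held more counts than the 119 genes in Sfmbt2 in both animals. Of the latter, 54 had no window of their own and were at 0, so this compares counts alone. Own windows were not compared between the host genes. Gm20388 held 5, of which 1 was detected. Of all miRNA genes, 18.8% were detected. These are values for single host genes, with no test of a difference.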
